A study of Mus musculus with 12 samples.

Results

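Transcript levels of 8 genes of insulin signalling and glucose uptake were compared across 12 Affymetrix arrays of mouse total RNA. The genes were chosen by name, with earlier results of these data known, and were Insr, Irs1, Irs2, Pik3r1, Akt2, Tbc1d4, Slc2a4 and Cav1. All 8 were measured, out of 19938 genes with a probe set of their own. Each gene was read from the probe set annotated to that gene alone, the one with the highest mean where there were several. The arrays fell into 4 groups of 3 biological replicates. Adipocytes differentiated in vitro made up 3 of them. Their starting cells were 3T3-L1, an immortalised preadipocyte line derived from mouse embryo fibroblasts, primary mouse embryonic fibroblasts (PMEF), or murine embryonic stem (ES) cells. The remaining group was eWAT, which usually stands for epididymal white adipose tissue, taken from wild-type mice in good health. The labels give no other genotype, strain, age or sex, nor how long or with which agents the cells were differentiated.

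Insulin is the hormone that makes fat and muscle cells take up glucose. It activates a receptor kinase at the cell surface, the receptor phosphorylates its substrate proteins, and these recruit phosphoinositide 3-kinase, whose lipid product brings the kinase AKT to the membrane. AKT switches off a brake on vesicle movement, and vesicles that carry the glucose transporter GLUT4 then fuse with the plasma membrane. In fat cells the surface is also densely covered with caveolae, small membrane pits in which part of the insulin receptor resides.

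Values are the log2 intensities that the authors deposited. A difference of 1 is 2-fold. Differences come from a linear model of all 12 arrays (limma) and carry a moderated standard error, with 3 arrays in each group. A gene is said to have risen, fallen or changed where the Benjamini-Hochberg adjusted p over all 19938 genes was below 0.05. The median over these genes was 6.11 to 6.12 on the 3T3-L1 arrays and 6.31 to 6.35 on the other arrays. With each array centred on its median, the median difference of all genes between 3T3-L1 adipocytes and eWAT went from 0.05 to 0.26, and with arrays centred on 7 reference genes it went to -0.33. The share of higher genes among those called went from 57.8% to 77.1% and 20.2% in the same comparison. The 7 reference genes were not constant themselves. In 3T3-L1 adipocytes against eWAT 5 of them rose and 1 fell (median 0.44), so values centred on them carry that shift. In PMEF and in ES adipocytes 3 of them rose and 2 fell. For ES adipocytes the median difference from eWAT went from 0.04 to 0.11 on the reference genes, and for PMEF adipocytes it went from 0.05 to 0.04. The 3 comparisons with eWAT share the same eWAT arrays.

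Most of the 8 genes were lower than in tissue in 3T3-L1 and PMEF adipocytes, and 4 of 8 were in ES adipocytes. In 3T3-L1 adipocytes 7 fell and 1 rose, in PMEF adipocytes 6 fell and none rose, and in ES adipocytes 4 fell and none rose. Since the genes were chosen with earlier results of these data known, these counts are not independent evidence. Over all genes, 53.3% were called in the 3T3-L1 comparison with eWAT (30.8% higher, 22.5% lower), 46.3% in the PMEF comparison (24.7% higher, 21.6% lower) and 49.7% in the ES comparison (28.8% higher, 20.9% lower). The 8 genes are brighter than most, with means over all arrays of 7.98 to 11.95, and bright genes are called more often. Among the 4973 genes at least as bright as the dimmest of the 8, the shares of lower genes were 24.5%, 29.2% and 24.6%. The 3T3-L1 adipocytes had a median difference from eWAT of -0.73 over the 8 genes and 0.05 over all genes. For PMEF adipocytes these medians were -0.65 and 0.05, and for ES adipocytes -0.27 and 0.04. Tbc1d4, Akt2, Pik3r1 and Slc2a4 fell in each of the 3 models, by sizes that differed widely.

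**Figure D1:**
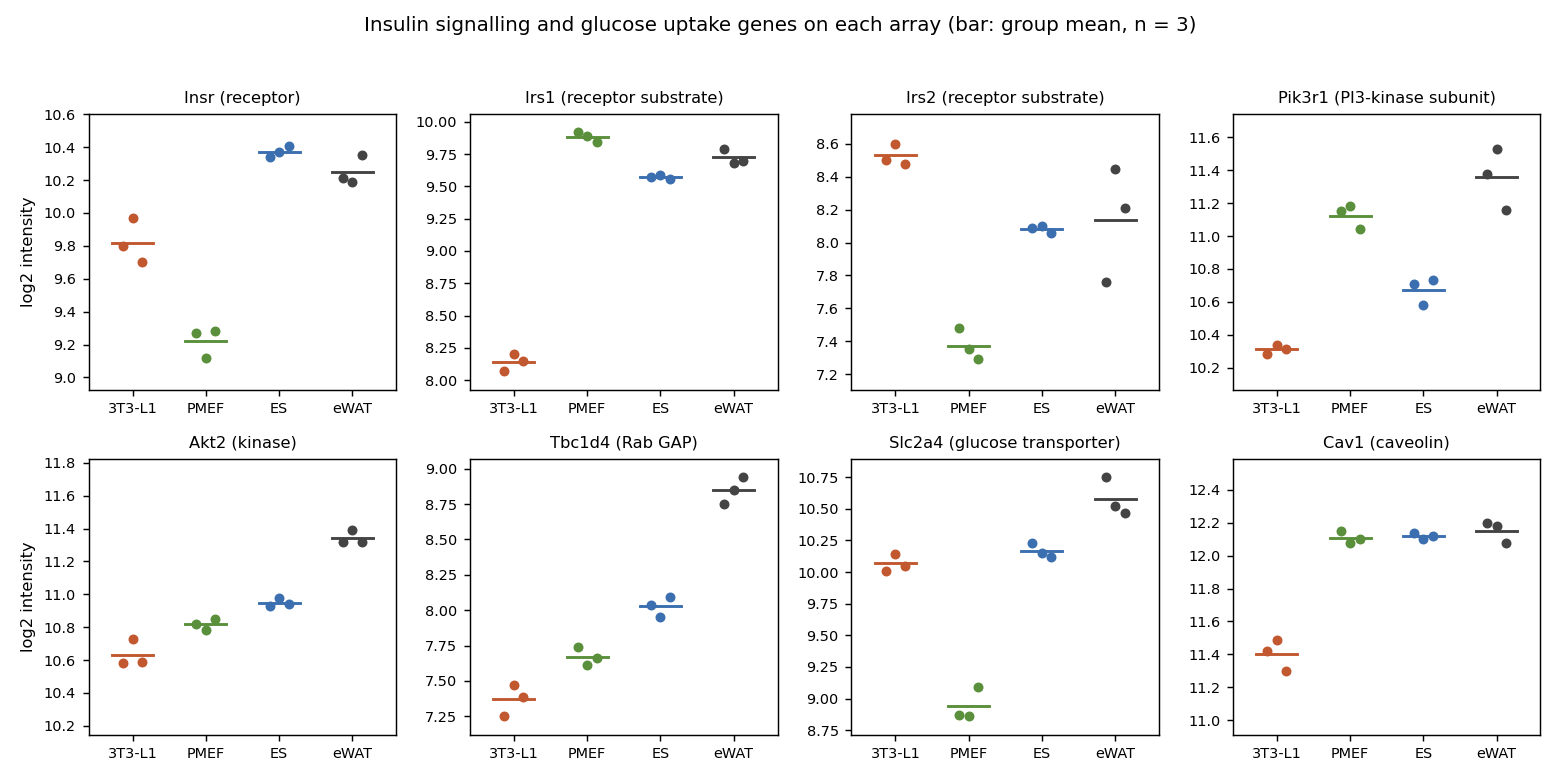
Log2 intensity of the 8 genes on each of the 12 arrays, a panel per gene, with points for arrays and a bar for the mean of 3. Slc2a4, Insr and Irs2 were lowest in PMEF adipocytes, and Irs1, Pik3r1, Akt2, Tbc1d4 and Cav1 were lowest in 3T3-L1 adipocytes. The vertical axes do not start at 0 and differ between panels.

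Insr encodes the insulin receptor, a tyrosine kinase. Its log2 intensities were 10.21, 10.19 and 10.35 in eWAT and 10.34, 10.37 and 10.41 in ES adipocytes. They were 9.80, 9.97 and 9.70 in 3T3-L1 and 9.27, 9.12 and 9.28 in PMEF adipocytes. The PMEF arrays lay below all the others, the 3T3-L1 arrays came next, and the ES and eWAT arrays overlapped. Against eWAT, Insr fell by 1.03 ± 0.08 in PMEF adipocytes (SE, adjusted p = 2.21e-07), a 2.04-fold difference, and by 0.43 ± 0.08 in 3T3-L1 adipocytes (adjusted p = 0.000529). In ES adipocytes the difference was 0.12, with a 95% interval of -0.06 to 0.30 (adjusted p = 0.242). A second probe set of Insr gave -0.93 in PMEF, -0.23 in 3T3-L1 and 0.11 in ES adipocytes, with the same calls.

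Igf1r, the related receptor for insulin-like growth factor, did not follow Insr. It was at 8.67 ± 0.03 in PMEF adipocytes (mean ± SD, n = 3), the group in which Insr was lowest, against 7.41 ± 0.11 in eWAT, and the difference of 1.26 ± 0.08 passed the test (adjusted p = 1.29e-08). It rose by 0.32 ± 0.08 in ES adipocytes and fell by 0.28 ± 0.08 in 3T3-L1 adipocytes (adjusted p = 0.00691), where it was -0.07 with median-centred arrays (adjusted p = 0.418).

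Irs1 and Irs2 encode the main substrates of the receptor, docking proteins that bind phosphoinositide 3-kinase once phosphorylated. Irs1 intensities were 8.07, 8.20 and 8.15 in 3T3-L1 adipocytes. They were 9.92, 9.89 and 9.84 in PMEF, 9.57, 9.59 and 9.56 in ES adipocytes, and 9.79, 9.68 and 9.70 in eWAT. The 3T3-L1 arrays stood far below the rest, which lay close together without overlapping. In 3T3-L1 adipocytes Irs1 fell by 1.58 ± 0.06 against eWAT (adjusted p = 1.41e-10), a 3-fold difference, which 6.82% of all genes matched or exceeded in size. PMEF and ES adipocytes were at 0.16 ± 0.06 and -0.15 ± 0.06 against eWAT and did not pass the test (adjusted p = 0.0588 and 0.0684). The PMEF difference passed without eWAT array 1 (adjusted p = 0.0367). ES adipocytes lay below PMEF adipocytes by 0.31 ± 0.06 (adjusted p = 0.00141). A second probe set of Irs1, near background at 4.55 to 5.35, gave a smaller fall of 0.41 ± 0.14 in 3T3-L1 adipocytes (adjusted p = 0.0276) and -0.03 ± 0.14 between ES and PMEF (adjusted p = 0.889).

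Irs2 had another order. Its intensities were 8.50, 8.60 and 8.48 in 3T3-L1, 7.48, 7.35 and 7.29 in PMEF, and 8.09, 8.10 and 8.06 in ES adipocytes. In eWAT they were 7.76, 8.45 and 8.21, the widest spread of any of the 8 genes in any group (SD 0.35). The 3T3-L1 arrays were the highest and the PMEF arrays the lowest, with ES and eWAT between them and overlapping. Irs2 fell by 0.76 ± 0.13 in PMEF adipocytes against eWAT (adjusted p = 0.000285) and by 1.15 ± 0.13 in PMEF against 3T3-L1 adipocytes (adjusted p = 5e-06). The rise of 0.39 ± 0.13 in 3T3-L1 adipocytes against eWAT (adjusted p = 0.0234) rested on the scaling and on single arrays. It was 0.01 on the reference genes (adjusted p = 0.929), 0.26 with quantile normalization (0.115), 0.20 without eWAT array 1 (0.081) and 0.35 without 3T3-L1 array 2 (0.0739). With median-centred arrays the rise was still called. In ES adipocytes the difference from eWAT was -0.06, with a 95% interval of -0.34 to 0.23, and without eWAT array 1 it was -0.25 (adjusted p = 0.0352).

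The promoters of Irs1 and Irs2 are shown because both genes serve the same step while their levels had different orders across the groups. Each line is the stretch of 250 bases before the transcription start site, 5′ to 3′ on the gene's strand, from RefSeq on GRCm38.p6. The Irs1 window is chr1:82291440-82291689 on the minus strand, and the Irs2 window is chr8:11008930-11009179 on the minus strand. Capitals mark the E-box CACGTG, a site read by basic helix-loop-helix factors, and the word TGTTTTG, which resembles the insulin response elements read by forkhead factors.
Irs1: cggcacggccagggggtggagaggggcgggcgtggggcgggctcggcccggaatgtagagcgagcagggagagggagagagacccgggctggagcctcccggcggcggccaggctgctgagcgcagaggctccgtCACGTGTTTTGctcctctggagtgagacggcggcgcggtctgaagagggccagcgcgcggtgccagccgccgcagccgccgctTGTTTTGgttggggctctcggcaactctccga
Irs2: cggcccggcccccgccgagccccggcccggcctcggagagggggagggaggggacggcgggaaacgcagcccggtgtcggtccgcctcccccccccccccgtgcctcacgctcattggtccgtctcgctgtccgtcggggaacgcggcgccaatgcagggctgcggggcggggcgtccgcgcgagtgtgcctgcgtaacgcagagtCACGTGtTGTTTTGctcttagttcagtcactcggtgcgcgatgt
Both windows hold 1 E-box with TGTTTTG close to it on the same strand. The E-box begins at -115 in Irs1 and at -44 in Irs2, counted from the start site. The nearest TGTTTTG begins at -37 in Irs2, past a single base after the E-box. In Irs1 it overlaps the end of the E-box, and a second TGTTTTG lies nearer the start site. Both motifs, and so their pairing, were chosen after reading these sequences. On either strand, CACGTG was found in 6.02% and TGTTTTG in 5.56% of 32841 mouse promoter windows of this length. The pair was in 7 windows (0.0213%), counted where TGTTTTG began at most 8 bases after the start of CACGTG on the same strand. The Irs1 and Irs2 windows fit this rule, which was set with them in view, so the share is no test of rarity. Windows were at hand for 6 of the 8 genes, and those of Akt2, Pik3r1, Tbc1d4 and Cav1 held neither word. A match is a description of the letters only. The 2 genes had 72.4% and 72.8% G and C in these windows.

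Irs3, a substrate found in rodent fat cells, was lowest in the same group as Irs1. It was at 5.67 ± 0.07 in 3T3-L1, 8.17 ± 0.09 in PMEF adipocytes and 8.08 ± 0.07 in ES adipocytes (mean ± SD, n = 3), and at 8.96 ± 0.40 in eWAT. Against eWAT, Irs3 fell by 3.30 ± 0.15 in 3T3-L1 (adjusted p = 3.28e-10), by 0.79 ± 0.15 in PMEF adipocytes and 0.89 ± 0.15 in ES adipocytes.

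Pik3r1 encodes the p85 alpha regulatory subunit of phosphoinositide 3-kinase, which docks on the receptor substrates. Its intensities were 11.38, 11.53 and 11.16 in eWAT, 11.15, 11.18 and 11.04 in PMEF, 10.71, 10.58 and 10.73 in ES and 10.28, 10.34 and 10.31 in 3T3-L1 adipocytes. The groups followed each other in that order, and among them only eWAT and PMEF overlapped. Pik3r1 fell by 1.05 ± 0.09 in 3T3-L1 adipocytes against eWAT (adjusted p = 2.57e-07), a 2.07-fold difference, and by 0.68 ± 0.09 in ES adipocytes (adjusted p = 2.3e-05). The fall of 0.23 ± 0.09 in PMEF adipocytes was at the threshold (adjusted p = 0.0472). It missed the threshold with the replicate number as a block (0.0571), on the reference genes (0.0558), with array weights (0.0799), with the arrays of these 2 groups alone (0.115) and when any array but eWAT array 3 was left out (0.0513 to 0.194).

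The other subunits moved in both directions. The catalytic subunit gene Pik3cb fell in each model, by 1.50 ± 0.07 in 3T3-L1, 1.87 ± 0.07 in PMEF adipocytes and 0.65 ± 0.07 in ES adipocytes against eWAT. Pik3r2, the p85 beta subunit, rose by 0.78 ± 0.10, 0.95 ± 0.10 and 0.53 ± 0.10 in the same order. Of 15 measured genes for receptor adaptors and phosphoinositide 3-kinase, 4 rose and 7 fell in 3T3-L1 adipocytes (median difference -0.03, against 0.05 over all genes). These counts became 7 and 5 after median centring, and 2 and 10 on the reference genes. With these scalings 13596 and 14973 of the 19938 genes were called. In PMEF adipocytes 6 rose and 7 fell (median -0.11, against 0.05 over all genes), and in ES adipocytes 5 rose and 6 fell (median 0.09, against 0.04). As deposited, 53.3%, 46.3% and 49.7% of all genes were called in 3T3-L1, PMEF and ES adipocytes against eWAT.

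Akt2 encodes the AKT isoform most closely tied to glucose uptake in fat and muscle. Its intensities were 11.32, 11.39 and 11.32 in eWAT and 10.93, 10.98 and 10.94 in ES adipocytes. They were 10.82, 10.78 and 10.85 in PMEF and 10.58, 10.73 and 10.59 in 3T3-L1 adipocytes. No 2 groups overlapped, and tissue was the highest. Akt2 fell by 0.71 ± 0.07 in 3T3-L1 (adjusted p = 5.67e-07), 0.53 ± 0.07 in PMEF adipocytes (1.59e-05) and 0.39 ± 0.07 in ES adipocytes (0.0002) against eWAT. A second probe set gave falls of 0.86, 0.65 and 0.38. The models stood closer to each other. PMEF exceeded 3T3-L1 by 0.18 ± 0.07 (adjusted p = 0.0336), which became -0.04 with median-centred arrays and missed the threshold without 3T3-L1 array 1 or 3 or PMEF array 1 or 3 (adjusted p = 0.0583 to 0.113). ES and PMEF differed by 0.13 ± 0.07 (adjusted p = 0.121), but by 0.28 on the second probe set (adjusted p = 0.00216).

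Akt1, the isoform more often linked to growth, was not low in the cultures. It rose by 0.87 ± 0.08 in PMEF adipocytes (adjusted p = 6.02e-07) and by 0.36 ± 0.08 in 3T3-L1 adipocytes (adjusted p = 0.0012) against eWAT, and was at 0.11 ± 0.08 in ES adipocytes (adjusted p = 0.29). On the reference genes the 3T3-L1 difference of Akt1 was -0.01. Pde3b, the phosphodiesterase through which insulin restrains fat breakdown, fell by 1.69 ± 0.08 in 3T3-L1 and by 1.10 ± 0.08 in PMEF adipocytes. In ES adipocytes it was at 11.35 ± 0.03 against 11.18 ± 0.07 in eWAT (mean ± SD, n = 3), a difference of 0.17 that did not pass (adjusted p = 0.122), but passed on the reference genes at 0.24 (adjusted p = 0.0244). Pdpk1, the kinase PDK1 that activates AKT, rose by 0.40 ± 0.06 in ES adipocytes and was at -0.10 ± 0.06 in PMEF adipocytes (adjusted p = 0.214). In 3T3-L1 adipocytes it rose by 0.28 ± 0.06, but was -0.09 on the reference genes. Foxo1, a forkhead factor that AKT keeps out of the nucleus, fell by 0.68 ± 0.07, 0.74 ± 0.07 and 0.52 ± 0.07 in 3T3-L1, PMEF and ES adipocytes. Of 15 measured genes of the AKT branch, 9 rose and 4 fell in 3T3-L1 adipocytes (median 0.28). On the reference genes 3 rose and 6 fell, where 14973 of the 19938 genes were called. With median-centred arrays 11 rose and 2 fell, where 13596 genes were called. In PMEF adipocytes 2 rose and 4 fell (median -0.04), and in ES adipocytes 7 rose and 3 fell (median 0.17). As deposited, 53.3%, 46.3% and 49.7% of all genes were called in 3T3-L1, PMEF and ES adipocytes (medians 0.05, 0.05 and 0.04).

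Tbc1d4, also known as AS160, encodes the Rab GTPase activating protein that holds GLUT4 vesicles back until AKT phosphorylates it. Its intensities were 8.75, 8.85 and 8.94 in eWAT, 8.04, 7.95 and 8.09 in ES, 7.74, 7.61 and 7.66 in PMEF and 7.25, 7.47 and 7.39 in 3T3-L1 adipocytes. The 4 groups were separate from each other, in the same order as for Akt2. Tbc1d4 fell by 1.48 ± 0.08 in 3T3-L1 (adjusted p = 2.48e-09), 1.18 ± 0.08 in PMEF adipocytes (3.7e-08) and 0.82 ± 0.08 in ES adipocytes (1.46e-06) against eWAT. These are 2.78-fold, 2.27-fold and 1.76-fold differences. PMEF exceeded 3T3-L1 adipocytes by 0.30 ± 0.08 (adjusted p = 0.00643, but 0.424 with median-centred arrays), and ES exceeded PMEF by 0.36 ± 0.08 (adjusted p = 0.00217).

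Its paralog Tbc1d1, better known from muscle, differed little, at 0.24 ± 0.06 in 3T3-L1, -0.06 ± 0.06 in PMEF adipocytes and 0.17 ± 0.06 in ES adipocytes (adjusted p = 0.00458, 0.457 and 0.0409). The 3T3-L1 value turned to -0.13 on the reference genes, and the ES value missed the threshold with the replicate number as a block (0.0652) and without any array of 3T3-L1 or eWAT or ES array 1 or 3 (0.0505 to 0.128). Among cargo and coat genes of the GLUT4 vesicle, Sort1, the sorting receptor sortilin, fell by 1.08 ± 0.07 in 3T3-L1, 0.98 ± 0.07 in PMEF adipocytes and 0.52 ± 0.07 in ES adipocytes. Trarg1, a fat cell protein that travels with GLUT4, fell by 0.59 ± 0.07 and 1.19 ± 0.07 in 3T3-L1 and PMEF adipocytes. In ES adipocytes Trarg1 was at 11.11 ± 0.04 against 11.07 ± 0.10 in eWAT (mean ± SD, n = 3, adjusted p = 0.681). Lrp1, of the same list, was at 9.33 ± 0.01 in 3T3-L1, 11.34 ± 0.02 in PMEF, 10.23 ± 0.05 in ES adipocytes and 10.88 ± 0.09 in eWAT. Myo5a was at 9.25 ± 0.02, 8.25 ± 0.08, 8.05 ± 0.02 and 8.45 ± 0.08 in the same order. Of the 20 measured genes of GLUT4 vesicles and their movement, 7 rose and 7 fell in 3T3-L1 adipocytes (median 0.04), 2 rose and 7 fell in PMEF (median -0.12) and 5 rose and 8 fell in ES adipocytes (median -0.17). With median-centred arrays the 3T3-L1 counts were 11 and 4, and on the reference genes 2 and 13. In these settings 13596 and 14973 of the 19938 genes were called. The shares of all genes called in the 3T3-L1, PMEF and ES comparisons were 53.3%, 46.3% and 49.7% as deposited (medians 0.05, 0.05 and 0.04).

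**Figure D2:**
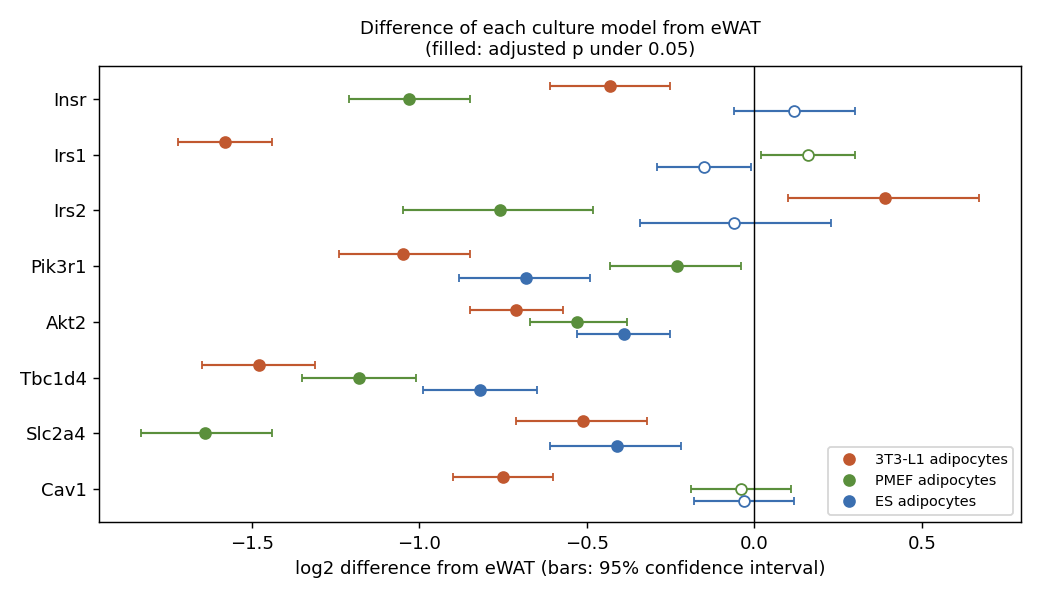
Log2 difference of each culture model from eWAT for the 8 genes, with 95% confidence intervals and filled points where the adjusted p was below 0.05. Tbc1d4 and Akt2 fell in all 3 models, while Cav1 and Irs1 fell in 3T3-L1 adipocytes and lay within 0.16 of eWAT in the other models.

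Slc2a4 encodes GLUT4, the glucose transporter that insulin moves to the surface. Its intensities were 10.75, 10.52 and 10.47 in eWAT, 10.23, 10.15 and 10.12 in ES, 10.01, 10.14 and 10.05 in 3T3-L1 and 8.87, 8.86 and 9.09 in PMEF adipocytes. PMEF adipocytes stood more than 1 log2 unit below the other cultures, the ES and 3T3-L1 arrays overlapped, and all eWAT arrays were above all culture arrays. Slc2a4 fell by 1.64 ± 0.09 in PMEF adipocytes against eWAT (adjusted p = 4.58e-09), a 3.11-fold difference. PMEF adipocytes were also 1.13 ± 0.09 below 3T3-L1 (adjusted p = 1.43e-07) and 1.23 ± 0.09 below ES adipocytes (adjusted p = 1.45e-07). The falls against eWAT were 0.51 ± 0.09 in 3T3-L1 (adjusted p = 0.000248) and 0.41 ± 0.09 in ES adipocytes (adjusted p = 0.00169). ES and 3T3-L1 adipocytes differed by 0.10, with a 95% interval of -0.09 to 0.29 (adjusted p = 0.422). That difference was -0.10 with median-centred arrays and 0.55 on the reference genes, where it passed (adjusted p = 7.23e-05), so the order of these groups was not settled.

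The other glucose transporters gave a different picture. Slc2a1, which encodes GLUT1, the transporter that works without insulin, was higher in every culture than in tissue. It was at 8.16 ± 0.10 in eWAT, 8.89 ± 0.08 in PMEF, 10.55 ± 0.07 in 3T3-L1 and 11.35 ± 0.02 in ES adipocytes (mean ± SD, n = 3). It rose by 3.20 ± 0.07 in ES adipocytes (adjusted p = 1.93e-12), a 9.16-fold difference, by 2.39 ± 0.07 in 3T3-L1 (8.93e-12) and by 0.73 ± 0.07 in PMEF adipocytes (1.81e-06). PMEF adipocytes therefore had the lowest level of both Slc2a4 and Slc2a1 among the cultures, with Slc2a1 1.66 ± 0.07 below 3T3-L1 and 2.46 ± 0.07 below ES adipocytes. Slc2a3, the high-affinity transporter GLUT3, was at 7.72 ± 0.12 in ES adipocytes and at 4.90 to 5.84 on average in the other groups, a rise of 1.88 ± 0.13 against eWAT (adjusted p = 3.87e-08).

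Slc2a5 and Slc2a13 were highest in tissue, while Slc2a9 was lowest there, at 5.88 to 6.18 on single arrays against 6.58 to 7.06 on average in the cultures. Slc2a10 was at 6.14 ± 0.10 in eWAT, 7.43 ± 0.06 in PMEF, 7.12 ± 0.12 in 3T3-L1 and 6.11 ± 0.22 in ES adipocytes. Slc2a5, which carries fructose, was at 8.55 ± 0.17 in eWAT and at 4.63 to 5.25 on average in the cultures, near 4.87, the 25th percentile of all values. It fell by 3.77 ± 0.13 in 3T3-L1, fell by 3.30 ± 0.13 in PMEF and fell by 3.93 ± 0.13 in ES adipocytes. Slc2a13, which carries myo-inositol, fell by 2.96 ± 0.08 in 3T3-L1, 1.68 ± 0.08 in PMEF adipocytes and 2.44 ± 0.08 in ES adipocytes. Hexokinases trap glucose in the cell, and Hk2, the isoform typical of insulin-sensitive tissue, was lowest where Slc2a4 was lowest. It was at 7.04 ± 0.20 in PMEF adipocytes against 8.53 ± 0.15 in eWAT, 8.86 ± 0.07 in ES and 9.31 ± 0.11 in 3T3-L1 adipocytes. It fell by 1.49 ± 0.11 in PMEF adipocytes and rose by 0.79 ± 0.11 in 3T3-L1 and 0.34 ± 0.11 in ES adipocytes (adjusted p = 6.63e-08, 2.22e-05 and 0.0172). The ES difference missed the threshold without ES array 1, eWAT array 2 or eWAT array 3 (adjusted p = 0.0612 to 0.0691). Hk1, the common isoform, lay between 11.58 and 12.06 on average in all groups. Of the 14 measured transporters and hexokinases, 5 rose and 5 fell in 3T3-L1 (median 0.03), 4 rose and 4 fell in PMEF (median 0.06) and 6 rose and 3 fell in ES adipocytes (median 0.20). On the reference genes the 3T3-L1 counts were 4 and 8, and with median-centred arrays 7 and 4. In these settings 14973 and 13596 of the 19938 genes were called. Over all genes, 53.3%, 46.3% and 49.7% were called in 3T3-L1, PMEF and ES adipocytes as deposited (medians 0.05, 0.05 and 0.04).

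**Figure D3:**
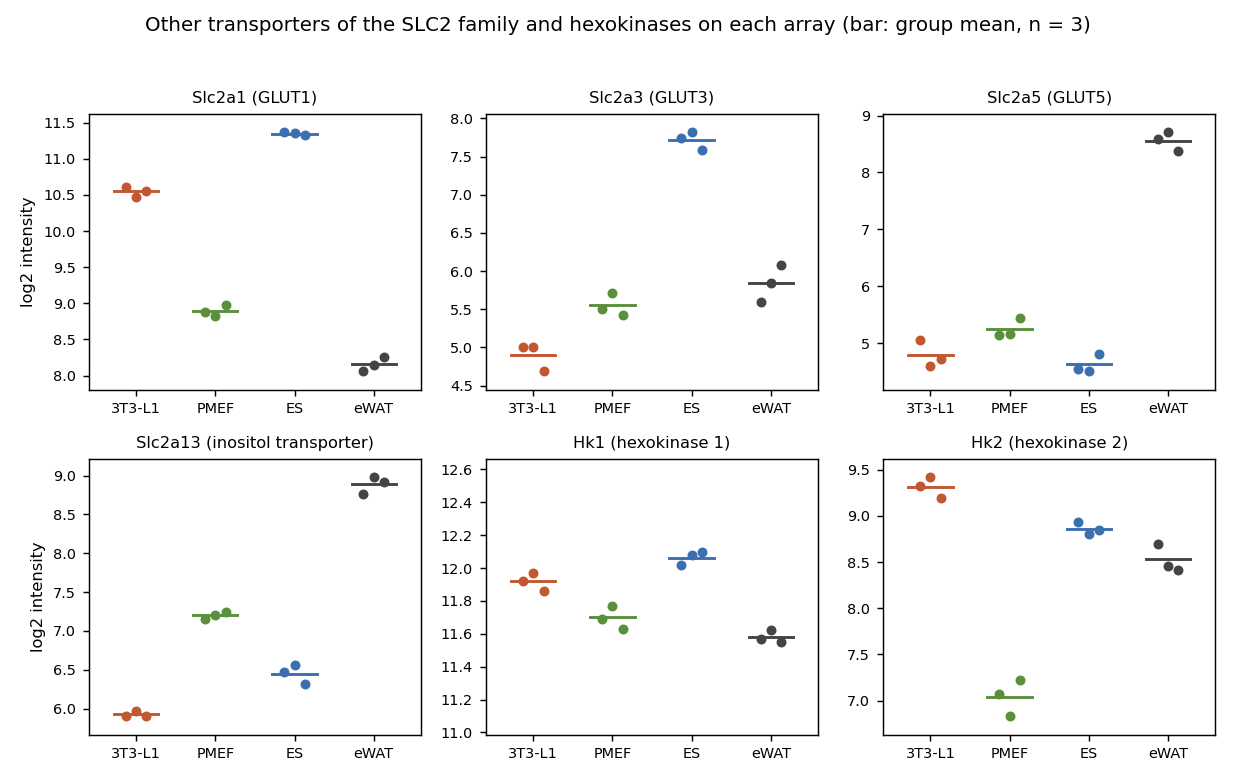
Log2 intensity of 4 other transporters of the SLC2 family and of 2 hexokinases on each of the 12 arrays, with a bar for the mean of 3. Slc2a1 was highest in ES adipocytes and lowest in eWAT, Hk2 was lowest in PMEF adipocytes, and Slc2a5 was high in eWAT alone. The vertical axes do not start at 0 and differ between panels.

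Cav1 encodes caveolin-1, the main coat protein of caveolae. Its intensities were 12.20, 12.18 and 12.08 in eWAT, 12.15, 12.08 and 12.10 in PMEF, 12.14, 12.10 and 12.12 in ES and 11.42, 11.49 and 11.30 in 3T3-L1 adipocytes. The 3T3-L1 arrays lay well below a tight cluster of the other 9. Cav1 fell by 0.75 ± 0.07 in 3T3-L1 adipocytes against eWAT (adjusted p = 5.23e-07), a 1.68-fold difference. Against eWAT, PMEF adipocytes were at -0.04 (95% interval -0.19 to 0.11) and ES adipocytes at -0.03 (-0.18 to 0.12), and the signs of these values turned under other scalings. Blood vessel lining is rich in caveolae as well, and in the cultures the 10 endothelial markers were far below tissue, with an average level of 5.22 to 5.59 per array against 9.29 to 9.64 in eWAT. Each of the 10 fell in each model, where 22.5%, 21.6% and 20.9% of all genes fell in 3T3-L1, PMEF and ES adipocytes. Emcn averaged under 4.87, the 25th percentile of all values, in all 3. The part of endothelial cells in the Cav1 values was not tested.

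Of the other caveola genes, Cavin1 and Cavin2, which encode coat proteins of the cavin complex, were low in the same group. Cavin1 fell by 0.73 ± 0.07 and Cavin2 by 1.07 ± 0.10 in 3T3-L1 adipocytes against eWAT (adjusted p = 9.71e-07 and 5.07e-07). In PMEF adipocytes they were at -0.08 ± 0.07 and -0.10 ± 0.10 (adjusted p = 0.417 and 0.432), and Cavin1 rose by 0.26 ± 0.07 in ES adipocytes (adjusted p = 0.00761). Cav2, the partner of Cav1, fell by 0.51 ± 0.08, 0.45 ± 0.08 and 0.35 ± 0.08 in 3T3-L1, PMEF and ES adipocytes. Cavin3 went the other way and rose by 1.01 ± 0.12, 0.77 ± 0.12 and 0.81 ± 0.12. Of the 9 genes, 3 rose and 4 fell in 3T3-L1 (median -0.01), 2 rose and 1 fell in PMEF (median 0.08), and 2 rose and 2 fell in ES adipocytes (median 0.04). With median-centred arrays the 3T3-L1 counts were 4 and 3, and on the reference genes 3 and 5. In these settings 13596 and 14973 of the 19938 genes were called. All genes as deposited gave shares called of 53.3%, 46.3% and 49.7% in 3T3-L1, PMEF and ES adipocytes (medians 0.05, 0.05 and 0.04). Cav3 and Cavin4, the muscle forms, were at 5.20 to 5.46 on average in each group.

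Among inhibitors of the pathway the models differed widely. Grb10, an imprinted adaptor that binds the active receptor and dampens it, was at 4.89 ± 0.11 in 3T3-L1 adipocytes, near background, and at 10.60 ± 0.04 in PMEF, 9.14 ± 0.08 in ES adipocytes and 8.31 ± 0.04 in eWAT (mean ± SD, n = 3). Against eWAT it fell by 3.43 ± 0.07 in 3T3-L1 adipocytes and rose by 2.28 ± 0.07 in PMEF and 0.83 ± 0.07 in ES adipocytes (adjusted p = 2.32e-13, 2.55e-11 and 5.23e-07). Trib3, a stress-induced pseudokinase reported to bind AKT, rose by 3.89 ± 0.13 in 3T3-L1, 2.21 ± 0.13 in ES and 0.55 ± 0.13 in PMEF adipocytes. Grb14, a relative of Grb10, fell by 1.57 ± 0.14, 0.62 ± 0.14 and 1.40 ± 0.14 in 3T3-L1, PMEF and ES adipocytes. Ptpn1, the phosphatase PTP1B that removes phosphate from the receptor, fell by 0.79 ± 0.19 in PMEF and 1.04 ± 0.19 in ES adipocytes. Its fall of 0.50 ± 0.19 in 3T3-L1 adipocytes (adjusted p = 0.0366) became -0.29 with median-centred arrays (adjusted p = 0.175), and missed the threshold with the replicate number as a block (0.0503) and without any 3T3-L1 array or eWAT array 2 or 3 (0.0502 to 0.146). Of the 11 measured inhibitors, 2 rose and 5 fell in 3T3-L1 (median -0.27), 3 rose and 4 fell in PMEF (median -0.01) and 3 rose and 5 fell in ES adipocytes (median -0.00). With median-centred arrays the 3T3-L1 counts were 2 and 3, and on the reference genes 1 and 9. In these settings 13596 and 14973 of the 19938 genes were called. The shares of all genes called in the 3T3-L1, PMEF and ES comparisons were 53.3%, 46.3% and 49.7% as deposited (medians 0.05, 0.05 and 0.04).

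Among factors known to act on the Slc2a4 gene, Pparg, the master regulator of fat cell formation, had the same order of group means as Slc2a4. For Slc2a4, however, the order of ES and 3T3-L1 adipocytes was not settled, and a link between the genes was not tested. Pparg was at 11.23 ± 0.09 in eWAT, 11.07 ± 0.05 in ES, 10.60 ± 0.05 in 3T3-L1 and 10.30 ± 0.14 in PMEF adipocytes (mean ± SD, n = 3). Against eWAT it fell by 0.93 ± 0.08 in PMEF and by 0.64 ± 0.08 in 3T3-L1 adipocytes (adjusted p = 4.99e-07 and 1.33e-05), and was at -0.17 ± 0.08 in ES adipocytes (adjusted p = 0.105, but 0.0483 without eWAT array 1). Klf15, a Krüppel-like factor, was lowest in PMEF adipocytes, as Slc2a4 was, and fell by 1.95 ± 0.10 in PMEF, 1.39 ± 0.10 in ES and 0.86 ± 0.10 in 3T3-L1 adipocytes against eWAT. Cebpa and Srebf1 were lowest in 3T3-L1 adipocytes, at 7.57 ± 0.12 and 7.71 ± 0.05. Cebpa, a factor of late fat cell differentiation, fell by 2.87 ± 0.11 there and by 0.76 ± 0.11 in PMEF adipocytes, and was at 0.18 ± 0.11 in ES adipocytes (adjusted p = 0.19). Srebf1, which encodes the lipogenic factor SREBP-1, fell by 2.10 ± 0.07 there, fell by 0.50 ± 0.07 in PMEF and rose by 0.41 ± 0.07 in ES adipocytes. Mef2a, a myocyte enhancer factor, rose by 0.40 ± 0.07 in 3T3-L1 adipocytes, where it was 0.03 on the reference genes, and fell by 0.31 ± 0.07 in ES adipocytes. Of the 9 factors, 3 rose and 6 fell in 3T3-L1 (median -0.38), none rose and 4 fell in PMEF (median -0.22), and 1 rose and 4 fell in ES adipocytes (median -0.22). For the 3T3-L1 comparison the counts were 3 and 4 after median centring, and 1 and 6 on the reference genes. With these scalings 13596 and 14973 of the 19938 genes were called. Over all genes, 53.3%, 46.3% and 49.7% were called in 3T3-L1, PMEF and ES adipocytes as deposited (medians 0.05, 0.05 and 0.04).

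Glycogen synthesis is a further outlet of insulin-driven glucose uptake. Gys1, the common glycogen synthase, rose by 0.52 ± 0.07 in ES adipocytes and fell by 1.07 ± 0.07 in PMEF and 0.40 ± 0.07 in 3T3-L1 adipocytes against eWAT. Gbe1, the branching enzyme, ran alike, at 0.46 ± 0.07, -1.46 ± 0.07 and -0.41 ± 0.07 in the same order. Ppp1r3c, a subunit that targets a phosphatase to glycogen, rose by 0.87 ± 0.15 in ES adipocytes and fell by 1.06 ± 0.15 in PMEF and 1.40 ± 0.15 in 3T3-L1 adipocytes. Pygl, the liver-type phosphorylase, fell by 6.12 ± 0.08 in 3T3-L1 adipocytes, to 4.72 ± 0.15, under the 25th percentile of all values, so that this size is uncertain, and by 2.60 ± 0.08 and 2.46 ± 0.08 in PMEF and ES adipocytes. Of the 12 measured genes, 2 rose and 8 fell in 3T3-L1 (median -0.41), 2 rose and 8 fell in PMEF (median -0.66) and 5 rose and 5 fell in ES adipocytes (median -0.04). The 3T3-L1 counts were 3 and 7 with median-centred arrays and 1 and 9 on the reference genes. With these scalings 13596 and 14973 of the 19938 genes were called. As deposited, 53.3%, 46.3% and 49.7% of all genes were called in 3T3-L1, PMEF and ES adipocytes (medians 0.05, 0.05 and 0.04).

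**Figure D4:**
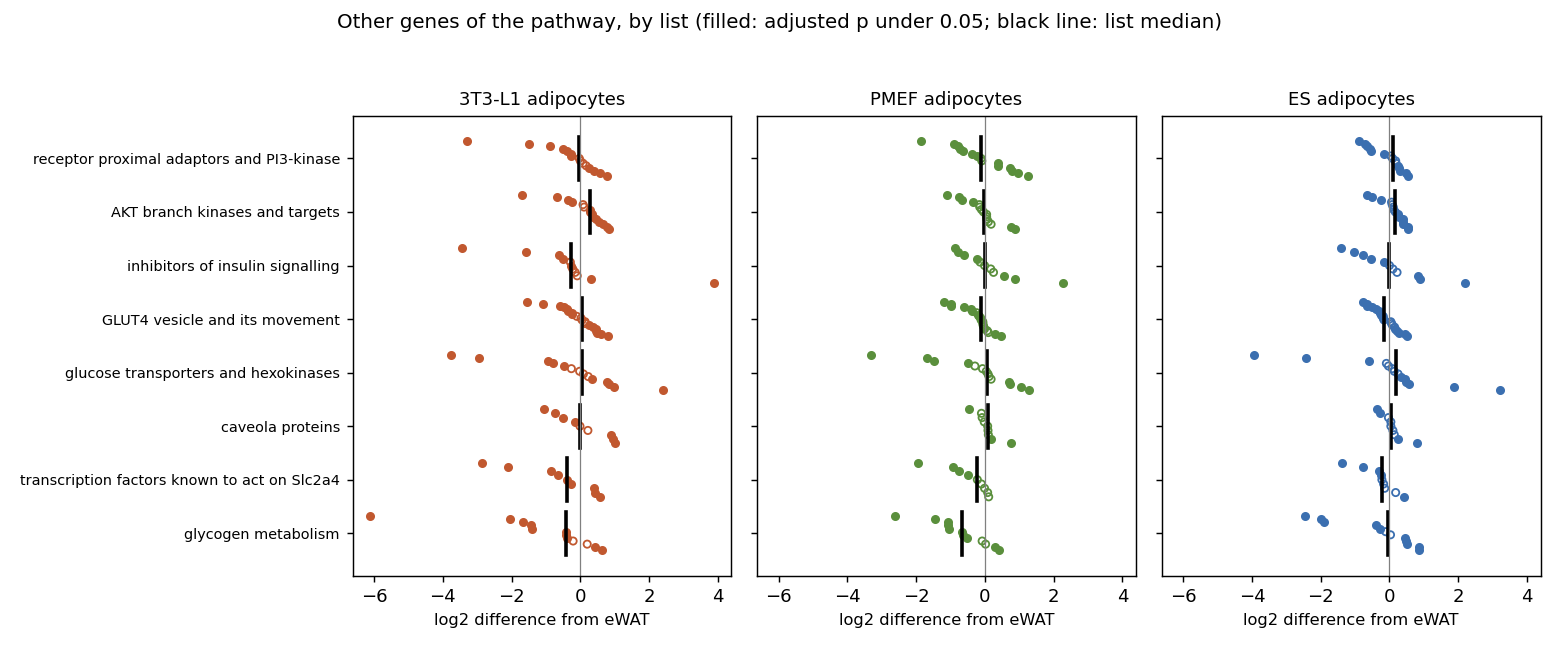
Log2 difference from eWAT of the measured genes of 8 lists around the pathway, a panel per culture model, with filled points where the adjusted p was below 0.05 and a black line at each list's median. Glycogen genes had the lowest median in PMEF adipocytes (-0.66), and in the 3T3-L1 panel the points furthest from 0 were Pygl at -6.12 and Trib3 at 3.89.

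Between the cultures, all 8 genes changed in PMEF against 3T3-L1 adipocytes, 5 higher and 3 lower, where 50.1% of all genes were called, 22.3% higher and 27.8% lower. Insr, Irs2 and Slc2a4 were the lower ones. The share of higher genes among all called was 44.6%, and 23.6% with median-centred arrays and 82.1% on the reference genes. With median-centred arrays 3 of the 8 genes were called higher and 3 lower, where 12002 of the 19938 genes were called. In ES against 3T3-L1 adipocytes 6 rose and 1 fell, where 43.4% of all genes were called, 20.4% higher and 23% lower. The share of higher genes among all called was 47.1% here, 21.7% with median-centred arrays and 90.9% on the reference genes. On the reference genes 7 of the 8 genes rose and none fell, and 16054 of the 19938 genes were called. The rises were Irs1 at 1.43 ± 0.06, Cav1 at 0.72 ± 0.07, Tbc1d4 at 0.66 ± 0.08, Insr at 0.55 ± 0.08, Pik3r1 at 0.36 ± 0.09 and Akt2 at 0.32 ± 0.07. The fall was Irs2 at -0.44 ± 0.13 (adjusted p = 0.014), which was 0.00 on the reference genes. With median-centred arrays Pik3r1 and Akt2 no longer passed (adjusted p = 0.143 and 0.149), at 0.16 and 0.11. In ES against PMEF adipocytes 4 rose and 2 fell, where 42.6% of all genes were called, 23.6% higher and 19% lower, and 55.4% of the calls were higher, or 67% on the reference genes. Slc2a4, Insr, Irs2 and Tbc1d4 rose, by 1.23 ± 0.09, 1.15 ± 0.08, 0.71 ± 0.13 and 0.36 ± 0.08, and Pik3r1 and Irs1 fell by 0.45 ± 0.09 and 0.31 ± 0.06. Cav1 differed by 0.01, with a 95% interval of -0.14 to 0.15.

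Across the 12 arrays the profile of each gene was set against those of 4697 other named genes whose group means spanned at least 1 log2 unit. The correlations are descriptions of 4 groups of 3 arrays which share their group differences. Slc2a4 was most like Uck1, Enpp4 and Rarres2, which encodes the adipokine chemerin (Pearson r = 0.993, 0.972 and 0.972). Insr was most like Trarg1 (0.977), Gbe1 (0.974) and Synrg (0.967), of which the first travels with GLUT4 and the second builds glycogen. Irs1 was most like Htra1, Efemp1 and Ctsf (0.997, 0.996 and 0.996), which averaged 5.39, 4.33 and 5.30 in 3T3-L1 adipocytes and at least 7.83 in every other group. Irs2 was most like Tnfaip3, Cited2 and Cd68 (0.968, 0.959 and 0.953). Akt2 was most like Cables1, Mgat4a and Utrn (0.986, 0.986 and 0.984), and Tbc1d4 was most like Gatm, Utrn and Pla2g7 (0.995, 0.995 and 0.987), so that Utrn, which encodes utrophin, was named by both. Pik3r1 was most like Arhgap24, Meox2 and Pxdn (0.983, 0.979 and 0.976), and Cav1 like Tmem47, Uty and Gnai1 (0.990, 0.990 and 0.988). Uty, a gene of the Y chromosome, averaged 3.58 in 3T3-L1, 7.70 in PMEF, 7.94 in ES adipocytes and 8.09 in eWAT. The labels give no sex, and the part of this difference in the 3T3-L1 comparisons was not tested.

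The groups also differed in markers of cell types. The 11 measured adipocyte markers averaged 12.17 to 12.34 per array in eWAT, 11.66 to 11.68 in ES, 11.23 to 11.33 in PMEF and 11.18 to 11.21 in 3T3-L1 adipocytes. Each averaged above the 25th percentile in each group except Lep, at 4.52 in 3T3-L1 adipocytes. Lep weighed on these averages, at 5.75 in PMEF, 6.58 in ES adipocytes and 10.44 in eWAT. The order of PMEF and 3T3-L1 adipocytes in these averages rested on Lep. Of the 11 markers, 6 fell in 3T3-L1 and 8 fell in PMEF adipocytes against eWAT, and none rose. In ES adipocytes 7 fell and 2 rose against eWAT. In PMEF against 3T3-L1 adipocytes 5 rose and 3 fell, with a median difference of -0.05. Over all genes 22.5%, 21.6% and 20.9% fell against eWAT in 3T3-L1, PMEF and ES adipocytes, and 30.8%, 24.7% and 28.8% rose. In PMEF against 3T3-L1 adipocytes 22.3% of all genes rose and 27.8% fell. The 10 macrophage markers averaged 9.04 to 10.04 in eWAT and 5.04 to 5.88 in the cultures. Of these, Cd68 was higher in 3T3-L1 adipocytes than in eWAT, by 0.93 ± 0.19 (adjusted p = 0.000909), and Lyz2 was at 8.08 ± 0.30 in PMEF adipocytes against 11.50 ± 0.36 in eWAT. The 8 mesothelial markers averaged 7.43 to 7.50 in PMEF and 7.12 to 7.15 in ES adipocytes, against 5.47 to 5.65 in eWAT and 5.44 to 5.47 in 3T3-L1 adipocytes, and all 8 rose in both PMEF and ES adipocytes against eWAT. The 8 smooth muscle markers averaged 8.36 to 8.56 in PMEF, 7.85 to 7.91 in eWAT, 7.31 to 7.43 in ES and 6.23 to 6.33 in 3T3-L1 adipocytes. The 10 fibroblast markers were at 11.74 in PMEF adipocytes, 10.23 to 10.38 in eWAT, 9.96 to 10.03 in ES and 8.42 to 8.48 in 3T3-L1 adipocytes. Skeletal muscle is another tissue with much Slc2a4, and its 10 markers averaged 5.29 to 5.36 per array in eWAT and 5.40 to 5.63 in the cultures. Of these, Myh1, Myh4 and Mylpf averaged under the 25th percentile in each group, and Actn3 was at 5.40 ± 0.06 in eWAT and at 5.76 to 6.47 on average in the cultures. The part of other cell types in the differences of the 8 genes was not tested, and in such samples fewer cells of a type and less RNA per cell cannot be told apart.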

How the data were processed

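Total RNA of 12 samples was hybridised to 1-colour Affymetrix arrays after amplification with the Ambion WT Expression kit, per the labels' protocols. The authors deposited log2 intensities for 35556 probe sets, between 1.11 and 13.48. The background correction and normalization behind them, and the day or batch of each array, are not given here. No scanner values were used. GEO's platform annotation gave 21789 probe sets a single gene symbol, 1621 several and 12146 none. Probe sets with a single symbol were kept, the brightest for each of 999 genes with several, which left 19938 genes. Over all probe sets, array medians lay between 5.84 and 5.98, and replicate arrays correlated at 0.989 to 0.994. The precision is limited by the number of arrays.

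A model of all 4 groups was fitted with limma 3.58.1 in R 4.3.3 (8 residual and 4.88 prior degrees of freedom), with Benjamini-Hochberg adjustment per comparison. The fit was tested on simulated data with known changes before use. Other genes were named by rule: a few key ones for each list, and otherwise up to 3 called genes at each end of the list, by size of change. The members and lists were chosen with earlier results of these data known, so their direction is not independent evidence. Replicate numbers were checked as pairs and did not pair the arrays: of 18 pairs with the same number, 1 correlated above 0.1 in deviations from the group means. Alternatives were 3 scalings, other probe set rules, a filter on dim genes, other variance models, array weights, the replicate block and leaving out each array. Promoter windows are from RefSeq.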

Additional observations from a re-analysis of the deposited data

How the results depend on the processing

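The number of the 8 genes called stayed within 1.5 times its main value in each comparison under each alternative. This rule ignores direction and which genes were called, and with 6 or more called only losses could break it. In ES against 3T3-L1 adipocytes 6 rose and 1 fell as deposited, and 4 rose and 1 fell with median-centred arrays. On the reference genes 7 rose and none fell there. Leaving out single arrays gave 7 to 8 in 3T3-L1 against eWAT, 5 to 6 in PMEF against eWAT, 4 to 5 in ES against eWAT, 7 to 8 in PMEF against 3T3-L1, 7 in ES against 3T3-L1 and 6 in ES against PMEF. With the replicate number as a block the counts were 8, 5, 4, 8, 7 and 6, and Pik3r1 in PMEF against eWAT was the call among the 8 genes that changed. The numbers do not pair the arrays: 1 of 12 correlated best with its own number. Signs turned mostly where a difference was not called. Of the called ones, Akt1 (0.36), Pdpk1 (0.28) and Tbc1d1 (0.24) turned in 3T3-L1 against eWAT. Akt2 (0.18 in PMEF against 3T3-L1) and Irs2 (-0.44 in ES against 3T3-L1) turned as well. With quantile normalization Cav1 was 0.05 in PMEF and 0.02 in ES against eWAT and -0.03 in ES against PMEF, and Trarg1 was -0.03 in ES against eWAT. Centred on the reference genes, Cav1 was 0.04 and Irs2 0.02 in ES against eWAT, Irs2 was 0.00 in ES against 3T3-L1, and Akt1, Tbc1d1 and Pdpk1 were -0.01, -0.13 and -0.09 in 3T3-L1 against eWAT. Centred on array medians, Akt2 was -0.04 in PMEF and Slc2a4 -0.10 in ES against 3T3-L1. The second Irs1 probe set gave 0.07 in ES against eWAT. When single arrays were left out, Irs2 in ES against eWAT ranged from -0.25 without eWAT array 1 to 0.10 without eWAT array 2, and Cav1 in ES against PMEF from -0.01 to 0.03, with -0.00 without PMEF array 3 or ES array 1. Calls were gained for Irs1 in PMEF against eWAT without dim genes (adjusted p = 0.033) with trended variance (0.0279) or with array weights (0.0407) and in ES against eWAT with quantile normalization (0.0112), without dim genes (0.0393) or with trended variance (0.0341). They were also gained for Akt2 in ES against PMEF on the reference genes (0.0154), with the mean of probe sets (0.0158) or with trended variance (0.0434), and for Pparg in ES against eWAT with quantile normalization (0.0402) or trended variance (0.0459). Irs1 in ES against PMEF was lost with the mean of its probe sets (-0.17, adjusted p = 0.169). The cause of these changes was not tested.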
